A study of Mus musculus with 2 samples.

Results

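The neuronal calcium sensors are a family of small EF-hand proteins, and 10 of their genes were followed here in the developing XX mouse gonad: Vsnl1, Hpca, Hpcal1, Hpcal4, Ncald, Ncs1, Rcvrn, Kcnip1, Kcnip3 and Kcnip4. The set was chosen on a measured value, since Vsnl1 had a higher signal in the mutant on both of its probe sets, and the ratios of Vsnl1 are therefore a description and not a finding. The other 9 genes were taken as relatives of Vsnl1. Every probe set whose platform annotation gave exactly 1 gene symbol equal to a member was used, which gave 22 probe sets for the 10 genes, of 45101 probe sets and 18193 singly named genes on the array. No probe set with several symbols named a member.

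The study compared 2 RNA samples. One came from wild-type XX embryos and the other from XX embryos carrying the Gata4ki allele on both chromosomes, each collected on embryonic day E12.5, with total RNA of 6 pairs of gonad-mesonephros complexes on a single array per genotype. The complex is the embryonic gonad together with the mesonephros, the transient kidney attached to it. Gata4ki is a knock-in allele whose GATA4 protein binds its FOG cofactors poorly, and it is a germ-line allele, carried by every cell of the embryo. The strain, C57Bl/6, was stated for the mutant only. With 1 array per genotype there was no replicate error, no test was possible, and every difference below describes these 2 arrays.

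Most neuronal calcium sensors carry a fatty myristoyl group at the amino end, and several expose it when calcium binds, which moves the protein to membranes. In neurons and photoreceptors they pass calcium signals to kinases, cyclases and ion channels. Most of what is known of them comes from brain and retina. They fall into the visinin-like group with hippocalcin and neurocalcin, the more widely expressed Ncs1, the retinal recoverin, and the Kcnip proteins, which are subunits of A-type potassium channels.

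Since the Gata4ki allele alters a transcription factor that binds DNA at GATA sequences, the promoter windows of the members were read from RefSeq (build GRCm38.p6), each running from 250 bases before to 50 bases after an annotated start. The table held 16 windows for 8 members, and Ncald and Rcvrn had no entry. The 6-letter GATA motif was searched on both strands as AGATAA or AGATAG or TGATAA or TGATAG, together with the 4-letter core GATA that lies inside each of them. Of all 32851 promoter windows in the table, 29.8% held the 6-letter motif and 57.9% held the core. Of the 16 member windows, 3 held the 6-letter motif and 7 the core. The windows of Vsnl1 are shown because this is the member whose signal differed, and a window of Kcnip3 because it held the 6-letter motif at 2 places. Capitals mark the core on either strand, read as GATA or as its reverse complement TATC.
Vsnl1, chr12:11436529-11436828, minus strand: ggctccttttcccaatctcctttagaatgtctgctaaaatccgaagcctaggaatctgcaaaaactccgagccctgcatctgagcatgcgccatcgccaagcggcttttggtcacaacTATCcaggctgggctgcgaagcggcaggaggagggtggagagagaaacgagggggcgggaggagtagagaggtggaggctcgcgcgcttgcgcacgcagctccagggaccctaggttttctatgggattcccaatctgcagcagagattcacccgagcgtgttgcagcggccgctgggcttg
Vsnl1, chr12:11435602-11435901, minus strand: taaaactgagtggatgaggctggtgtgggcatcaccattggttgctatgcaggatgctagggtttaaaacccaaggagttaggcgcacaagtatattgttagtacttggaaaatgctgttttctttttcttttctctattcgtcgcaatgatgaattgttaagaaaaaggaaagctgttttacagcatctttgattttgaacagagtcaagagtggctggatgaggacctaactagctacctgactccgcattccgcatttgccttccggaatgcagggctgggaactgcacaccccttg
Kcnip3, chr2:127521343-127521642, minus strand: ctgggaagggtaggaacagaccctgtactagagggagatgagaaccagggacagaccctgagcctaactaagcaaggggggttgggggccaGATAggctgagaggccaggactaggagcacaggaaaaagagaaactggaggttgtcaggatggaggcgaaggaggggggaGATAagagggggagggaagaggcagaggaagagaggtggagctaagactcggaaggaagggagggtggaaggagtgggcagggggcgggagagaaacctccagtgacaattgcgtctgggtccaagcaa

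The first Vsnl1 window had a single core, 132 bases upstream of its start, and the second, whose start lay 927 bases further downstream, had none. Neither window held the 6-letter motif. Their G+C contents were 58.7% and 44.3%. In the Kcnip3 window the 6-letter motif began 160 and 80 bases before the start. Each of the 2 Kcnip4 windows held it once, at 222 and at 240 bases before the start. A match is a run of letters and not a binding site, and the absence of one in such a short window says nothing about the factor.

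Signals are MAS5 intensities on a linear scale, where MAS5 combines the probes of a probe set into 1 value and scales each array by a single factor. The floor, below which values were not ranked, was the 50th percentile of all values of both arrays, a signal of 24.04. A probe set was measured where at least 1 array exceeded the floor. Where the other array did not, the fold change is a bound, written "at least", because the lower value was set to the floor. Where neither array exceeded it, the signals are given with no ratio. Ratios are log2 mutant minus wild type. A gene was read on its brightest probe set, by mean log2 signal after values under the floor were set to it. Ties were settled by the mean of the unchanged signals. A gene was called when it was at least 2-fold apart.

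**Figure D1:**
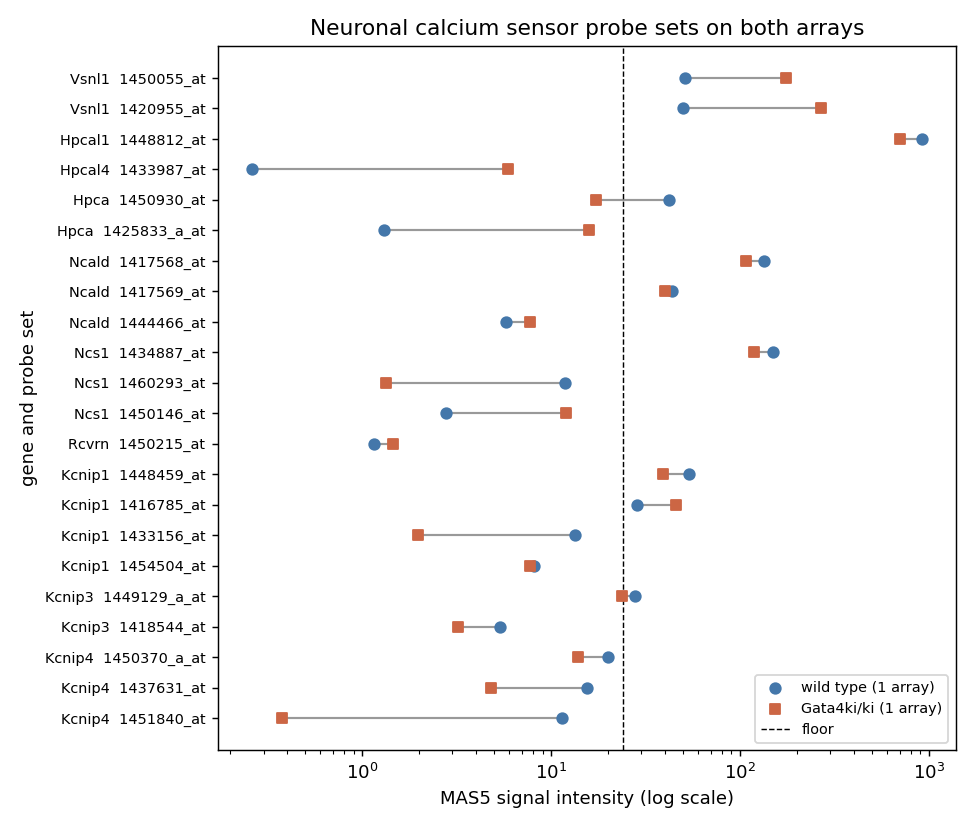
MAS5 signal (log axis) of each of the 22 member probe sets on the wild-type array (circles) and the Gata4ki/ki array (squares), with the floor of 24.04 as a dashed line. Both Vsnl1 probe sets lie above the floor and further right in the mutant, and 12 probe sets lie left of the floor on both arrays.

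Among the members, Vsnl1 alone was at least 2-fold apart between the arrays, and it was higher in the mutant. Fewer or more cells of a type cannot be told apart from less or more RNA per cell in such pooled tissue. Hpcal1, Ncald and Ncs1 had lower signals in the mutant, all within 2-fold, and the probe sets of Kcnip1 disagreed in sign. Hpca and Kcnip3 exceeded the floor in wild type only, so the sign of their bounds was fixed by that filter and is not read as a direction. Hpcal4, Rcvrn and Kcnip4 stayed under the floor in both genotypes. In all, 7 of 10 members were measured, 5 of them above the floor on both arrays and 2 as bounds. Of these 7, 1 was 2-fold higher, where 0.846% of the 12300 measured genes were, and none was 2-fold lower, where 0.537% were. The higher gene is the one on which the set was chosen, so nothing is read from that count.

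Vsnl1 encodes visinin-like protein 1, also called VILIP-1, a myristoylated sensor known in neurons for effects on guanylyl cyclase and on the surface level of a nicotinic acetylcholine receptor. Its probe set 1420955_at gave a wild-type signal of 49.97 and a mutant signal of 266.8. Its second probe set, 1450055_at, gave 51.4 and 174.7. On both probe sets the wild-type signal stood above the floor, and the mutant signal was the higher one. The fold differences were 5.34 and 3.40, with log2 ratios of 2.42 and 1.76. Neither probe set has a suffixed name, the mark of a probe set designed to match several transcripts.

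The Vsnl1 ratios were set against the other probe sets of like brightness. Among the 1000 probe sets nearest to 1420955_at in mean signal, the robust SD of the log2 ratio was 0.26, and 1 had a ratio as high, a probe set that stays unnamed here. Among the 1000 nearest to 1450055_at, the robust SD was 0.31, and 1 had a ratio as high, the second probe set of Dkk1, a secreted WNT antagonist. Of the genes that exceeded the floor in both genotypes, Vsnl1 ranked 4 by its ratio, after Cpa1, Prg2 and Dkk1. These positions describe the value on which the set was chosen.

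The 2 probe sets of Vsnl1 differed from each other by 0.65 on the log2 scale. Among 3043 genes with exactly 2 probe sets above the floor on both arrays, the median difference between the probe sets was 0.20 and the 90th percentile was 0.62. The 2 Vsnl1 readings thus lay further apart than those of most genes, while both exceeded every other member probe set. The next highest ratio was 0.68, on a dim probe set of Kcnip1. Both probe sets read the same RNA samples, so their difference is one between probe sets and says nothing about the spread between embryos.

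**Figure D2:**
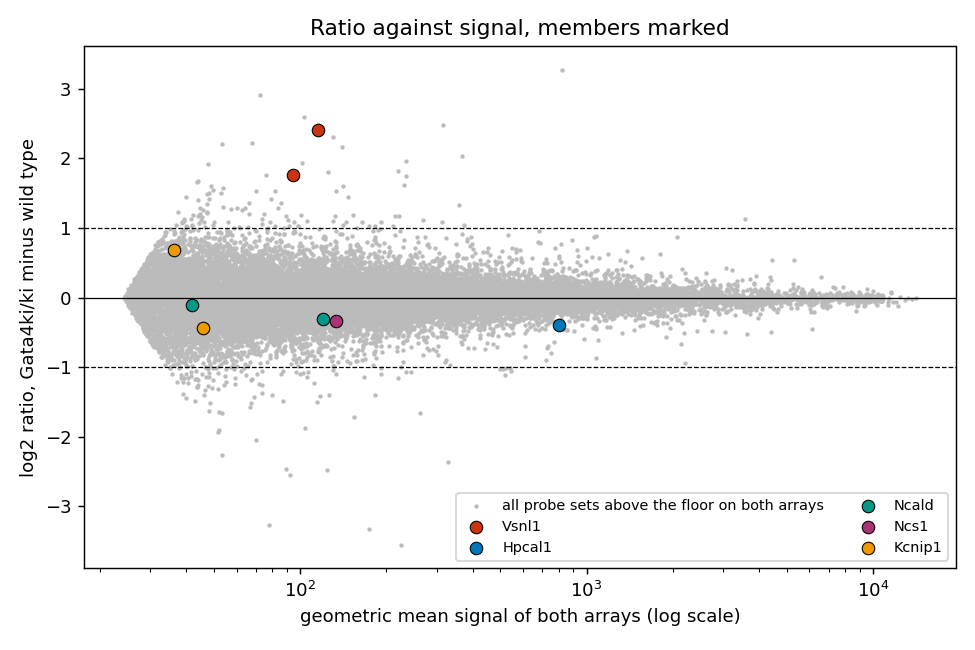
Log2 ratio of mutant to wild type against the geometric mean signal of both arrays (log axis) for all probe sets above the floor on both arrays (grey), with the 8 such member probe sets coloured by gene and dashed lines at 2-fold. The Vsnl1 points, at 2.42 and 1.76, lie above nearly all grey points of like signal, whereas the other members lie between -0.44 and 0.68.

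In the group of visinin-like proteins, hippocalcin and neurocalcin, the relatives of Vsnl1 above the floor on both arrays, Hpcal1 and Ncald, had ratios below 0. Hpcal1, also known as VILIP-3 and described in cerebellar Purkinje cells, had a wild-type signal of 919.4 and a mutant signal of 700.8 on its single probe set. That was a 1.31-fold lower signal, with a log2 ratio of -0.39. Signals of this height varied little between the arrays: the robust SD of the log2 ratio was 0.13 among the 1000 probe sets nearest in signal, and 13 of them had a ratio as low. Hpcal1 thus stood outside most probe sets of its brightness while remaining well inside 2-fold.

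Hpcal4, or VILIP-2, known as a modulator of presynaptic calcium channels, had signals of 0.26 and 5.92, both under the floor. Hpca encodes hippocalcin, the sensor of hippocampal neurons that acts in the slow afterhyperpolarization. Its probe set 1450930_at gave 42.0 in wild type and 17.3 in the mutant, so that the mutant value was under the floor. As a bound this was at least 1.75-fold lower in the mutant, a log2 ratio of -0.81 or lower. The sign of this bound was fixed by the filter and is not read as a direction. The bound became a log2 ratio of -1.28, past 2-fold, with the floor at the 40th percentile. Its other probe set was under the floor on both arrays, at 1.31 and 15.8, and was the higher in the mutant.

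Ncald, which encodes neurocalcin delta, a sensor with neuronal guanylyl cyclase and cytoskeletal partners, had 3 probe sets. The brightest gave 133.4 in wild type and 107.9 in the mutant, with a log2 ratio of -0.31. The second gave 43.4 and 40.3, with a ratio of -0.11. Both readings were slightly lower in the mutant and differed by 0.20, as much as the probe sets of a typical gene. The third lay under the floor with 5.76 and 7.74.

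Ncs1, or frequenin, the member with the widest expression and an activator of a phosphatidylinositol 4-kinase, had a wild-type signal of 149.8 and a mutant signal of 119.1 on its measured probe set. The log2 ratio was -0.33, a 1.26-fold lower signal. Of the 1000 probe sets nearest in signal 113 had a ratio as low, so a difference of this size was common at that brightness. Its other 2 probe sets were under the floor, one with 2.76 and 12.04 and the other with 11.8 and 1.33, and they pointed in opposite directions. Rcvrn encodes recoverin, the photoreceptor sensor that restrains rhodopsin kinase, and its only probe set was under the floor with 1.15 and 1.46.

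Of the Kcnip genes, whose proteins set the trafficking and inactivation of Kv4 potassium channels, only Kcnip1 was above the floor on both arrays. Its probe set 1448459_at gave 53.4 in wild type and 39.3 in the mutant, a log2 ratio of -0.44. Its probe set 1416785_at gave 28.5 and 45.8, a ratio of 0.68. The 2 readings disagreed in sign and differed by 1.12, more than the 90th percentile over genes with such a pair, and so Kcnip1 has no settled direction. The median over its measured probe sets was 0.12. Its remaining 2 probe sets were under the floor.

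Kcnip3, also called DREAM or calsenilin, which can act as a transcriptional repressor as well as a channel subunit, had a wild-type signal of 27.6 on its brighter probe set and a mutant signal of 23.9. The mutant value was just under the floor, which leaves a bound of -0.20 on the log2 scale. The other probe set gave 5.38 and 3.21. The 3 probe sets of Kcnip4 were all under the floor and all lower in the mutant, with 19.9 and 13.9, 15.4 and 4.81, and 11.4 and 0.38. No ratio is given for such values. Over all members 12 of 22 probe sets were under the floor on both arrays, compared with 39.2% of all singly named probe sets. Of these 12, 5 were higher in the mutant and 7 in wild type.

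The family has 3 further genes that were not members. Kcnip2, the cardiac channel subunit, gave a wild-type signal of 35.7 and a mutant signal of 4.30 on its brightest probe set. This is a bound of at least 1.49-fold lower, with a sign fixed by the filter, and the other 2 Kcnip2 probe sets were under the floor. Kcnip2 passed 2-fold lower with the floor at the 40th percentile, and with a pseudocount in place of the floor, at a log2 ratio of -1.08. Guca1a, which encodes a guanylyl cyclase activator of photoreceptors, had 17.3 and 18.8. The brighter Guca1b probe set had 15.6 and 4.30. Both Guca1 genes thus stayed under the floor.

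Genes that the sensors act on or with included none that was 2-fold apart. Over all measured genes 0.846% were 2-fold higher and 0.537% lower. At such shares a list of this length mostly holds none, so the lack of calls is not read as a result. Of 25 such genes read on the array 17 were measured, 8 with a ratio above 0 and 9 below, and their median log2 ratio was 0.00. The channel genes Kcnd2 and Kcnd3, whose proteins bind Kcnip subunits, had ratios of 0.05 and -0.04, and Kcnd1 had -0.52 with signals of 42.1 and 29.5. Psen2, which encodes the presenilin known to bind Kcnip3, had 159.9 and 109.5, a ratio of -0.55. Nmt1 and Nmt2, the enzymes that attach the myristoyl group, had ratios of 0.01 and 0.00 on their brightest probe sets, and the other 2 probe sets of Nmt2 gave -0.18 and -0.50. The clathrin adaptor subunits Ap2a1 and Ap2b1 had ratios of 0.60 and 0.27. Chrna4, a nicotinic receptor subunit linked to VILIP-1, rested on a mutant signal of 30.4 against 4.04 in wild type, a bound of 0.34, while its second probe set gave 18.8 against 26.0, a bound of -0.11 in the opposite direction. Pi4kb, the kinase that Ncs1 activates, was under the floor with 13.3 and 14.1.

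Other calcium sensors and buffers of the EF-hand class likewise held no gene that was 2-fold apart. The shares over all measured genes were 0.846% higher and 0.537% lower, so this lack is not read as a result either. Of 24 calmodulin-like sensor genes 12 were measured, with a median log2 ratio of 0.04. Efhd2, an actin-binding EF-hand protein of leukocytes and neurons, had the highest, 0.52, with signals of 679.5 and 972.5, and its second probe set gave 0.67. Necab2 had the lowest, -0.48, with 87.6 and 62.7. Efhd1 and Efcab1 had ratios of 0.24 and 0.20, though the second Efcab1 probe set gave a bound of -0.32. Of 16 buffers and S100 genes 9 were measured, with a median of 0.08. Calb1, a calbindin found in nephric duct epithelium, had 496.2 in wild type and 301.2 in the mutant, a ratio of -0.72. S100a13, S100a9 and S100a4 had ratios of 0.44, 0.39 and 0.36. Vsnl1 was the only measured gene of these EF-hand lists and the members to reach 2-fold at this floor. It is the gene on which the set was chosen, so this is a description and not a finding.

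Genes for calcium entry and storage had ratios on both sides of 0. Of 24 genes 19 were measured, none was 2-fold apart on its brightest probe set, and the median log2 ratio was -0.09. Over all measured genes 0.846% were 2-fold higher and 0.537% lower, so nothing is read from that absence. Stim1, the sensor of calcium in the endoplasmic reticulum, had 72.7 in wild type and 42.6 in the mutant, a ratio of -0.77. Orai1, the channel that it opens, had 44.1 and 70.1, a ratio of 0.67, but its second probe set gave 0.01. The calcium pump gene Atp2a3 had 25.1 and 40.1, a ratio of 0.67, and Ryr2, a calcium release channel, had 24.4 and 35.3, a ratio of 0.53. Several of these signals were close to the floor. Itpr2, an inositol trisphosphate receptor, had a ratio of -0.25 on its brightest probe set, and -0.97 and -1.01 on the others.

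Neuron and glia markers were read on the same arrays. Of 23 such genes 18 were measured, 7 with a ratio above 0 and 11 below, none 2-fold apart, and the median log2 ratio was -0.06. Over all measured genes 48.6% had a ratio below 0, 0.846% were 2-fold higher and 0.537% lower. Nothing is thus read from the absence of calls. Their summed wild-type signal was 2679 and their summed mutant signal 2555. Chga, a chromaffin granule protein, had a ratio of -0.90 with signals of 48.8 and 26.2, the mutant one just above the floor. Nefm, a neurofilament, had -0.68, and Phox2a, a factor of autonomic neurons, had -0.47. On their brightest probe sets Th, Dbh, Chgb and Hand2, further markers of this list, had 0.11, 0.04, -0.13 and -0.05. Map2 had 0.63 on one probe set and a bound of -0.08 on the other. Snap25, Elavl3, Prph, Sox10 and Foxd3 were under the floor on both arrays. Stmn2, a microtubule regulator of neurons, had a ratio of 0.14 on its brightest probe set and 0.44 on the other. The part of neurons and glia in the Vsnl1 signal was not tested.

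**Figure D3:**
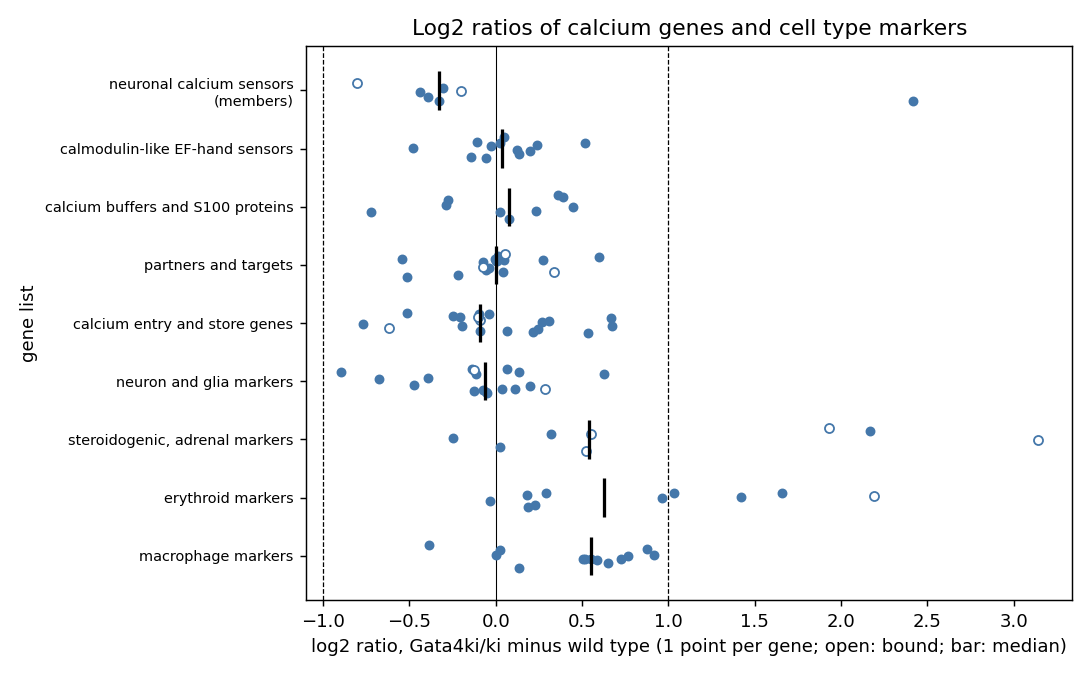
Log2 ratio of mutant to wild type for the measured members and for the measured genes of 8 lists, with 1 point per gene, open points for bounds, bars for list medians and dashed lines at 2-fold. Vsnl1, on which the set was chosen, lies at 2.42, alone to the right of 2-fold among the members and the calcium lists. Steroidogenic and erythroid markers also have genes beyond 2-fold.

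Marker lists of 3 other cell types had median ratios above 0 with bounds counted. In the steroidogenic and erythroid lists, bounds whose sign was fixed by the filter are among them. Of 8 measured steroidogenic and adrenal cortex markers only 4 were above the floor on both arrays, and of these Hsd3b1 alone was 2-fold higher, at 2.17. The measured markers outside these 4 exceeded the floor in the mutant only. The sign of their bounds was thus fixed by that filter and is not read as a direction. With the bounds counted 3 were 2-fold higher, Cyp17a1, Hsd3b1 and Star, where 0.846% of all measured genes were. The list median of 0.54 includes the bounds, so neither it nor that count is read as a direction. The summed signal was 1400 on the wild-type array and 1918 on the mutant array. The Cyp17a1 and Star values were bounds of 3.14 and 1.93, and the other probe sets of Star gave a bound of 0.91 and a measured 0.17. The 3 calls became 2 with the floor at the 60th percentile and 2 with the median over probe sets. Mc2r, the corticotropin receptor, had a ratio of 0.32, Scarb1, a receptor for high-density lipoprotein, had -0.25, and Fdx1, an electron carrier for steroidogenic enzymes, had 0.027. The adrenal enzymes Cyp21a1, Cyp11b1 and Cyp11b2 were under the floor on both arrays. Of 10 erythroid markers 9 were above the floor on both arrays, and of these Klf1, Slc4a1 and Alas2 were 2-fold higher. With the bound of Hemgn counted 4 were 2-fold higher, where 0.846% of all measured genes were. The list had a median of 0.63 and summed signals of 16598 and 18032. Hemgn exceeded the floor in the mutant only, with a wild-type signal of 20.2, so the sign of its bound was fixed by the filter. The wild-type signal of Klf1, 24.5, was just above the floor. Tal1, a factor of blood cell development, had 0.96. The globin genes Hba-x, Hbb-y and Hbb-bh1 had 0.29, -0.04 and 0.18, and Epor and Gata1 had 0.23 and 0.19. The other probe set of Slc4a1 gave 0.95, under 2-fold. The 4 erythroid calls became 3 under the 60th percentile floor, 3 with the pseudocount and 2 without suffixed probe sets. Of 13 macrophage markers 12 had a ratio above 0, where 48.6% of all measured genes had one below 0. None was 2-fold apart, where 0.846% of all measured genes were 2-fold higher and 0.537% lower. The list had a median of 0.55 and summed signals of 1824 and 2728, and Ptprc had the highest ratio, 0.92. Fcer1g, Csf1r and Adgre1, a receptor subunit and surface receptors of macrophages, had ratios of 0.87, 0.77 and 0.72. The other probe sets of Csf1r gave 0.59 and 0.40. Cd68, C1qa and Lyz2 had only 0.13, 0.02 and 0.0009, and Cx3cr1 had -0.39. The part of such cells in the Vsnl1 signal was not tested. As a check of the labelled tissue, all 10 gonad and germ cell markers and all 7 mesonephric markers were above the floor on both arrays. Fst and Foxl2, genes of the early ovary, were 2-fold lower in the mutant, where 0.537% of all measured genes were. The gonad and germ cell list had a median ratio of -0.21 and its signals summed to 6815 on the wild-type array and 5572 on the other. It had 4 genes above 0 and 6 below, where 48.6% of all measured genes were below. Nr5a1, a factor of gonadal and adrenal cells, had a ratio of 0.34 and Dazl, a germ cell RNA-binding protein, had -0.31. The mesonephric list had a median of -0.16 and summed signals of 2604 and 2161, with 1 gene above 0 and 6 below, against the same 48.6%. The 1 above was Lhx1, at 0.21, and its second probe set gave a bound of -0.55. Cdh16 and Emx2 had -0.19 and -0.23, and Calb1, given above, had the lowest ratio of the list. The ratio of 3' to 5' signal for beta-actin was 2.16 on the wild-type array and 2.47 on the mutant array.

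With 2 arrays, a pattern is only a signal height and a ratio. On that plane the 5 genes nearest to Vsnl1 were Hsd3b1, Thbs2, Fcgr2b, Prg2 and Mpo. Hsd3b1, a steroid dehydrogenase, had signals of 66.1 and 297.0 and lay 0.37 log2 units away. Thbs2, a matricellular thrombospondin, had 66.8 and 232.9, Fcgr2b, an inhibitory Fc receptor, had 31.5 and 146.6, and the granule proteins Prg2 and Mpo had 26.3 and 198.1, and 41.3 and 140.4. Their distances ran up to 0.89.

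The measured genes on either side of Vsnl1 in the RefSeq gene order were close between the arrays. Of the 3 protein-coding genes on each side, Gen1, Smc6, Cyria and Mycn were measured, with log2 ratios of 0.17, 0.03, 0.31 and 0.03. Mycn, a proto-oncogenic transcription factor, had signals of 1309 and 1337, and Smc6, a subunit of a chromosome maintenance complex, had 473.2 and 482.3. Msgn1 was under the floor on both arrays, and Rad51ap2 was not read here. Hpcal1, on the same chromosome as Vsnl1, was lower in the mutant.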

How the data were processed

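Total RNA of gonad-mesonephros complexes was measured on 1 oligonucleotide array per genotype. The authors deposited linear signal intensities, 1 per probe set, and the submitters' processing notes name MAS5. The sources used here give neither its version nor detection calls or filters. Trimmed by 2% at each end, the mean signal was 150.0 for each genotype, as 1 scale factor per array leaves it. The values were used as deposited. Background subtraction makes them least precise at low signal, and the number of arrays limits all precision.

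Probe sets were named through the platform annotation: 34945 had 1 symbol, 932 several, 9160 were not listed, and 64 control probe sets were left out. Values under the floor were set to it before taking log2. All 10 members were found in the RefSeq gene table. The array files name no genome build, so coordinates are given for RefSeq promoter windows only. Named genes were all members, the 3 other family genes, from each list the genes at least 2-fold apart and up to 4 with the largest ratio above the floor on both arrays, and the 5 nearest to Vsnl1; other names were chosen after their values were seen. Members, lists and rules were chosen with earlier results of these data known. The alternatives were the floor at the 40th or 60th percentile, a pseudocount equal to the floor, quantile normalization, no suffixed probe sets, and the median over probe sets. Python 3.11.15, numpy 2.4.6 and pandas 2.3.3 were used, and the procedure was tested on simulated data.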

Additional observations from a re-analysis of the deposited data

How the results depend on the processing

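Vsnl1 was the 1 member at least 2-fold higher in the mutant under all 6 alternatives tried. The set was chosen on this value, so that is a description and not support. The other floors and the removal of suffixed probe sets left its ratio at 2.42, since both its probe sets are unsuffixed and exceeded those floors. The Vsnl1 log2 ratio of 2.42 became 1.97 with a pseudocount in place of the floor, which shrinks ratios by construction, and 2.09 as the median over its probe sets. No member was 2-fold lower except with the floor at the 40th percentile, where 1 was, Hpca at -1.28. Of the 13957 genes measured at that floor 0.974% were 2-fold lower. Over all genes that floor gave 210 higher and 136 lower, against 104 and 66, whereas the 60th percentile gave 41 and 33, the pseudocount 64 and 41, and the median over probe sets 88 and 48. At the 60th percentile 5 members were measured, and Hpca and Kcnip3 were not. Without suffixed probe sets 6 were measured. Kcnip1 went from -0.44 to 0.12 as the median over probe sets. No paired analysis was possible because each genotype has 1 array. The height of the signal over the floor limits Hpca, Kcnip1 and Kcnip3, and the absence of replicates limits every value.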
